A study of Homo sapiens with 28 samples.

Results

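STEAP1, STEAP2, STEAP3 and STEAP4 encode the STEAP metalloreductases, and their RNA was followed across the 8 treatment groups of LNCaP cells. These 4 genes were taken by symbol from the 61815 human genes of the table, and each symbol matched 1 row. LNCaP is an androgen-responsive human prostate cancer line. The labels give their genotype as WT, and the cells were kept for 72 h before treatment in serum that charcoal had stripped of steroids, so that every group, controls included, had been deprived of androgen. In the first experiment the cells were then treated for 24 h with vehicle (0.1% DMSO), Senexin B at 1 µM, R1881 at 0.1 nM or both agents, with 3 libraries per group. In the second they were treated for 72 h with vehicle, SNX631 at 500 nM, R1881 at 1 nM or both, with 4 libraries per group, 28 libraries in all. R1881 is a synthetic androgen. Both inhibitors, Senexin B and SNX631, act on CDK8 and its paralog CDK19, which belong to the kinase module of Mediator. Doses are those of the labels, from which the methods of the study differ for Senexin B. The experiments differ at once in duration, dose of androgen and inhibitor, and these cannot be told apart, so the inhibitors are set side by side and not compared.

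STEAP proteins are membrane proteins that carry electrons across a membrane through a heme. STEAP2, STEAP3 and STEAP4 have an oxidoreductase domain inside the cell that takes electrons from NADPH and passes them on to ferric iron or cupric copper, which is how these metals are made ready for transport, whereas STEAP1 has the membrane domain but lacks that oxidoreductase domain. STEAP1 and STEAP2 were found as cell surface antigens of the prostate, STEAP3 reduces iron in endosomes of the transferrin cycle, and STEAP4 is best known from adipose tissue and from inflammation.

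STEAP4, STEAP1 and STEAP2 lie on the long arm of chromosome 7 and STEAP3 lies on chromosome 2 (GENCODE 29, build GRCh38). The gene identifiers, with their versions, are those of the deposited counts. The release used for counting is not given, so the spans and transcript lengths behind the counts may differ from those used here. STEAP1 (ENSG00000164647.9) spans chr7:90154375-90164829 on the plus strand, and STEAP2 (ENSG00000157214.14) starts 2.8 kb beyond its end and spans chr7:90167590-90238137 on the same strand. STEAP4 (ENSG00000127954.13) spans chr7:88270892-88306891 on the minus strand, 1847.5 kb from the start of STEAP1. STEAP3 (ENSG00000115107.20) spans chr2:119223831-119265652 on the plus strand. Promoter windows of 300 bases, from 250 bases before the annotated start to 50 bases after it, were read from RefSeq on GRCh38.p14, and all 4 members were matched there.

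STEAP1 has a close copy, STEAP1B, on the same chromosome, and the 2 promoter windows are shown to let the copies be compared. They share 290 of 300 bases (96.7%), and the capitals mark the 10 positions at which they differ. The STEAP1 window is chr7:90154219-90154518 on the plus strand and the STEAP1B window is chr7:22500139-22500438 on the minus strand.
STEAP1: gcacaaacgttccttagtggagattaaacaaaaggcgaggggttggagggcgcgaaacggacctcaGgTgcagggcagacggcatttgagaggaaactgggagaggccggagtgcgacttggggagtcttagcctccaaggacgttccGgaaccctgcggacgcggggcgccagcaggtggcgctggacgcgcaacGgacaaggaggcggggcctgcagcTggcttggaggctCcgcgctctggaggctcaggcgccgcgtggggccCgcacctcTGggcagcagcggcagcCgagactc
STEAP1B: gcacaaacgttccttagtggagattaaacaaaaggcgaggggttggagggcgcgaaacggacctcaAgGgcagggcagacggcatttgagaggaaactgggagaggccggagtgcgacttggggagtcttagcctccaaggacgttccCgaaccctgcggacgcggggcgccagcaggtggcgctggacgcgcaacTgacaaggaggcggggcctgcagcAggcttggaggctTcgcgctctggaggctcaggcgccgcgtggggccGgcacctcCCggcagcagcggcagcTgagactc

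In the transcripts, 13.6% of the 75-base windows of STEAP1 also occur in STEAP1B, and no such window is shared among the 4 members themselves. STEAP1B held 0 to 11 counts in every library, against 2448 to 8919 for STEAP1. Reads from the shared stretches can come from either gene, so the STEAP1 values are uncertain by the part of the reads that fell there.

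STEAP2 is shown with its neighbour in the opposite direction. In RefSeq, the antisense gene STEAP2-AS1 starts on the minus strand beside a start of STEAP2 that lies inside the GENCODE 29 span of the gene, and the capitals mark the 104 bases between the 2 starts in the window chr7:90211490-90211789, given on the plus strand. STEAP4 is shown because it is the member that went from no reads to a measurable level, and in its window, chr7:88306845-88307144 on the minus strand, the capitals mark the 50 bases from the annotated start on.
STEAP2: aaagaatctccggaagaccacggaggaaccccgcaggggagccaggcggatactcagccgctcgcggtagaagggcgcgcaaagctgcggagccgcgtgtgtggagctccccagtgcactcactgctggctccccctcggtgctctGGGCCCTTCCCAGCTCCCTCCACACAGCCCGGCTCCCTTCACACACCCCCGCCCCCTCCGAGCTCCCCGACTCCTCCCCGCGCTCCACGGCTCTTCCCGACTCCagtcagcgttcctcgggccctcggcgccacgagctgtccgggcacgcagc
STEAP4: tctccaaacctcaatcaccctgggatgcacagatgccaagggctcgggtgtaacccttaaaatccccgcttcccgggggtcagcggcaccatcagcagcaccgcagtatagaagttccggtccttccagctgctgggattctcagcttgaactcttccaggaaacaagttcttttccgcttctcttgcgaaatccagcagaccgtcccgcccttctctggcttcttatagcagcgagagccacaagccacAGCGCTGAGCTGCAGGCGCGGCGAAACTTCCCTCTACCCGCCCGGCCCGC

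The STEAP2 window shown has a GC content of 70.3%, the STEAP1 window 66.7%, the STEAP3 window 78.7% and the STEAP4 window 58.7%, beside a median of 58.7% over 35116 promoter windows. A second STEAP2 start further downstream has a window of 33.7% GC. The full palindromic androgen response element, spelled AGAACA, any 3 bases and TGTTCT and alike on both strands, was found in none of the windows of the 4 members and in 0.00285% of all windows. Its single arm AGAACA, searched on both strands and part of the full element, was also found in none of them, beside 14.8% of all windows. The forkhead motif TGTTTAC, searched on both strands, had 1 match, in the window of the second STEAP2 start, beside 3.42% of all windows. These searches say only that the letters are present or absent in 300 bases around each start.

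The antisense genes were close to silent in these libraries. STEAP2-AS1 held 1 to 11 counts and STEAP3-AS1 0 to 3. In GENCODE 29, STEAP2-AS1 shares no exon base with STEAP1 or STEAP2, and STEAP3-AS1 shares 500 of its 3218 exon bases with STEAP3. Without strand in the counting, reads of such a pair cannot be told apart.

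Total counts ranged from 9846595 to 33809419 per library, with replicate 3 of the 24 h vehicle group highest and the others at 15248512 or less. Luminal prostate genes gave between 3420 and 5320 in CPM (counts scaled to library size) in sum over 8 markers per library, and the basal markers KRT5, KRT14 and TP63 at most 0.447. The sum of 4 stromal markers, nearly all COL1A1, was 23 to 25.3 in the 24 h vehicle libraries and 7.64 to 9.19 with both agents, and the part of this in the results was not tested. CPM are counts per unit of library size, with the sizes scaled by TMM over all libraries. For a call, the quasi-likelihood test of edgeR had to give a false discovery rate (FDR) below 0.01 and a fold above 1.5, the limits the study used. The words rose and fell are kept for such calls, and a second, looser count takes an FDR under 0.05 at any fold. Where groups are said not to overlap, the share of all genes that separate likewise was not counted. Nothing particular to the members is read from it. The study describes its RNA-Seq replicates as biological, but no label says that they were separate cultures. The p values thus measure the spread between these libraries, part of which may be technical. In bulk RNA, fewer cells with a transcript and less of it per cell cannot be told apart.

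R1881 without inhibitor brought STEAP4 from no reads to a measurable level, gave no call for STEAP2, whose groups overlapped, and moved STEAP1 and STEAP3 by less than 1.5-fold. At 24 h, 1 of the 4 members was called and 3 passed the looser limit, all higher, where 19% of the 15948 genes tested were called and 58.4% passed the looser limit. At 72 h the same counts were 1 and 3, where 19.8% of 16074 genes were called and 62.1% passed the looser limit. The member called was STEAP4 each time, whose call the filter fixed, so nothing is read from the count of calls.

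**Figure D1:**
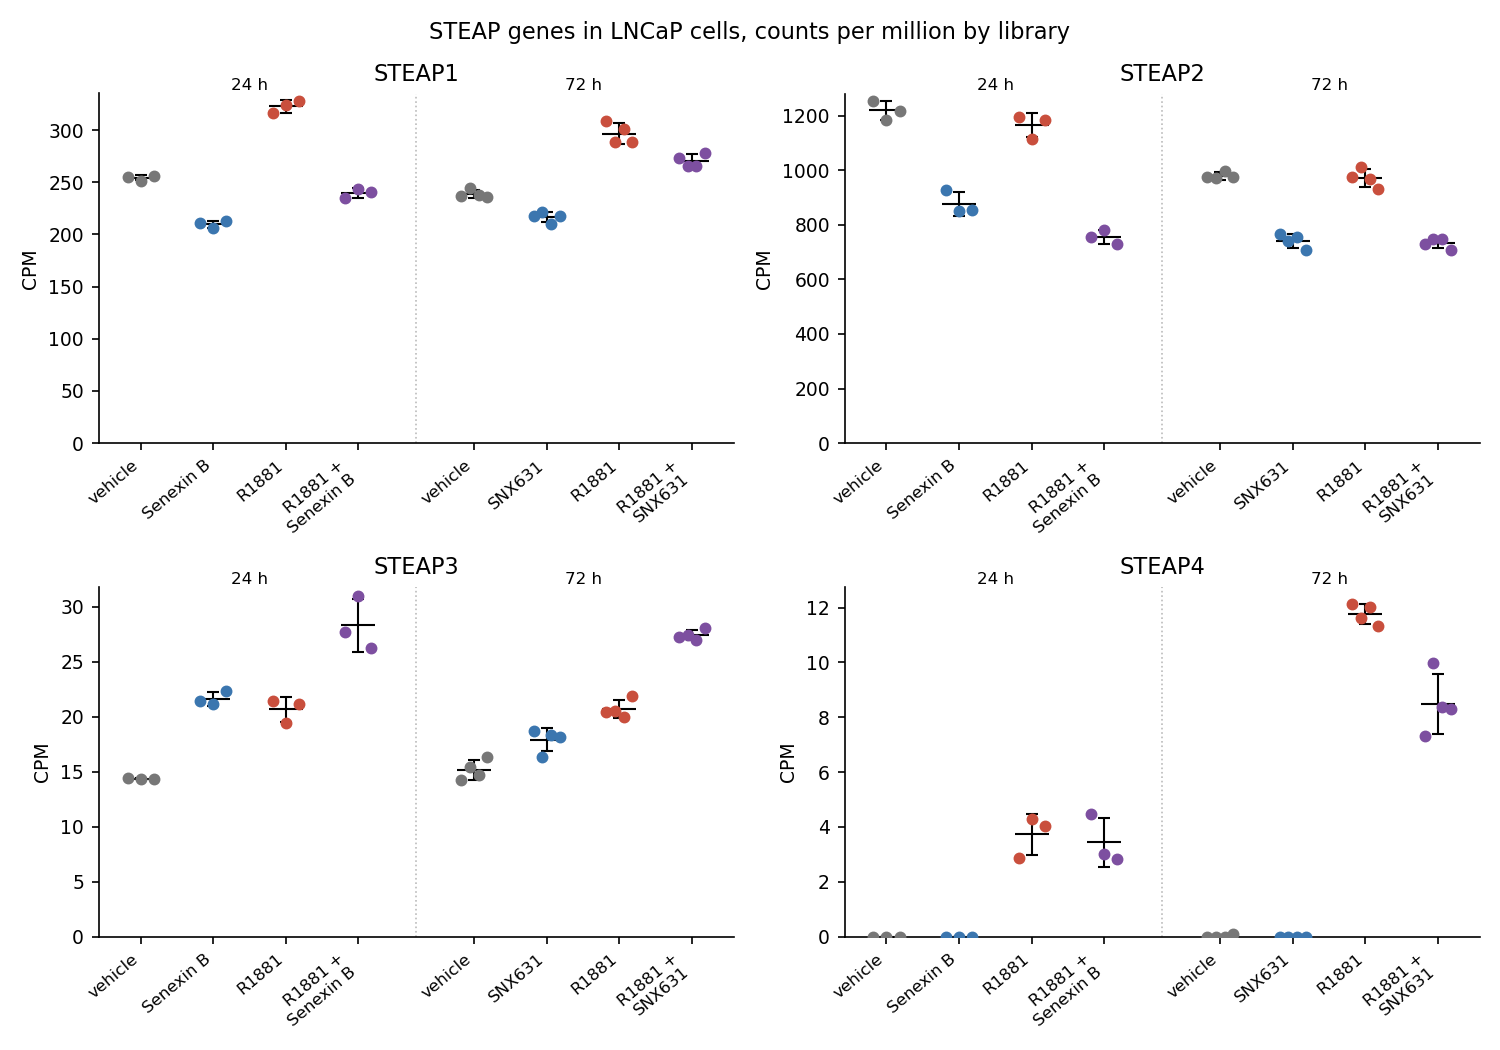
Level of each STEAP gene in CPM (vertical axes from 0) in each of the 28 libraries, grouped by treatment, with the 24 h experiment to the left and the 72 h experiment to the right of the dotted line. Points are libraries and black bars give the mean and SD of a group. STEAP4 lies at 0 or next to it in all groups without R1881, STEAP1 is highest with R1881 alone, STEAP2 is lowest with the inhibitors, and STEAP3 is highest with both agents.

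STEAP4, which can reduce both iron and copper, was not measurable without androgen. All 3 vehicle and all 3 Senexin B libraries at 24 h held 0 counts, as did all 4 SNX631 libraries and 3 of the 4 vehicle libraries at 72 h, and the remaining vehicle library held 1 count. A count of 0 allows up to 3 counts, which is between 0.0861 and 0.284 CPM in the vehicle libraries at 24 h and covers counting error only. With R1881 for 24 h the 3 libraries held 31, 48 and 46 counts, which is 2.88, 4.29 and 4.02 CPM (mean 3.73 ± 0.752 SD). With R1881 for 72 h the 4 libraries held 117, 142, 136 and 131 counts, which is 12.1, 11.6, 12.0 and 11.3 CPM (mean 11.8 ± 0.373 SD). No library with R1881 overlapped one without it.

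Against the mean floor of 3 counts in the vehicle libraries, the 24 h level of STEAP4 with R1881 was higher by at least 19.1-fold, and the 72 h level by at least 48.8-fold. STEAP4 passed the filter on low counts only through the groups with R1881, so it had to differ and its call supports nothing further, and its fitted fold changes against groups at the floor are not given because they depend on the prior count. In the presence of Senexin B the level was at least 14.6-fold higher, and in the presence of SNX631 at least 34.8-fold higher.

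The level of STEAP4 with R1881 alone was 3.14-fold higher at 72 h and 1 nM than at 24 h and 0.1 nM (log2 fold change 1.65 ± 0.14 SE, FDR = 6.01e-12), and it rose by the limits of a call. This comparison was chosen after its values were seen, and the libraries of the 2 experiments did not overlap. Among the 16672 genes tested there, 3.85% were called and 32.3% passed the looser limit. The other 3 members were not called in it: STEAP1 and STEAP2 stood at 0.918 and 0.835 of their 24 h level, and STEAP3 was at the same level within its interval (log2 difference 0.0027, 95% interval -0.135 to 0.14).

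STEAP1 was higher with R1881 in both experiments, by less than the fold limit. Its 3 vehicle libraries at 24 h held 256, 252 and 256 CPM and its 3 R1881 libraries 316, 324 and 328 CPM. At 72 h the 4 vehicle libraries held 237, 244, 238 and 236 CPM and the 4 R1881 libraries 309, 289, 301 and 288 CPM. Groups did not overlap in either experiment, and how many of all genes separate in this way was not counted. The fold change was 1.27 at 24 h (log2 0.34 ± 0.03 SE, FDR = 3.99e-11) and 1.23 at 72 h (log2 0.30 ± 0.03 SE, FDR = 1.3e-12), so both passed the FDR limit and lay under the fold limit. The androgen effects at 72 and 24 h differed by -0.03 on the log2 scale (95% interval -0.111 to 0.0472).

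STEAP2, the most abundant member by counts, was not called with R1881 alone. At 24 h the vehicle libraries held 1254, 1186 and 1218 CPM and the R1881 libraries 1197, 1114 and 1186 CPM. At 72 h the vehicle libraries held 974, 970, 999.1 and 975 CPM and the R1881 libraries 977, 1013, 970 and 932 CPM. The groups overlapped in both experiments. The log2 fold change was -0.07 ± 0.04 SE at 24 h (FDR = 0.106, 95% interval -0.14 to 0.0055) and -0.02 ± 0.02 SE at 72 h (FDR = 0.573, 95% interval -0.064 to 0.032).

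STEAP3, the ferric reductase of the transferrin cycle, was higher with R1881 in both experiments and came close to the fold limit. The 3 vehicle libraries at 24 h held 14.4, 14.3 and 14.4 CPM and the 3 R1881 libraries 21.4, 19.4 and 21.2 CPM. At 72 h the 4 vehicle libraries held 14.2, 15.4, 14.7 and 16.4 CPM and the 4 R1881 libraries 20.4, 20.5, 19.97 and 21.9 CPM. Again no library of one group reached the other. The fold change was 1.44 at 24 h (log2 0.52 ± 0.08 SE, FDR = 7.4e-07) and 1.36 at 72 h (log2 0.44 ± 0.07 SE, FDR = 4.81e-07).

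The androgen effect was not called different between the experiments for any of the 3 members that could be tested for it (0 called by edgeR and by DESeq2, 0 at an unadjusted p under 0.05), where 1.88% of all genes were called and 13.2% passed the looser limit. STEAP4 was left out of this contrast because both vehicle groups were at the floor. Between the vehicle groups themselves, STEAP2 at 72 h stood at 0.803 of its 24 h level (log2 -0.32 ± 0.03 SE, FDR = 6.2e-12) and STEAP1 at 0.939 (FDR = 0.00642). Neither was called by edgeR or DESeq2 and both had an unadjusted p under 0.05, beside 5.97% of genes called and 42.8% at the looser limit.

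STEAP1 and STEAP2 had lower and STEAP3 higher levels with the inhibitors in both experiments, with and without androgen, and all these differences passed the looser limit. With Senexin B alone, 1 member was called, STEAP3, and 3 passed the looser limit, where 3.79% of genes were called and 35.8% passed the looser limit. With Senexin B in the presence of R1881, 1 was called, STEAP2, and 3 passed the looser limit, beside 3.12% and 33% of genes. With SNX631 alone, 0 members were called and 3 passed the looser limit, beside 4.77% and 36.5% of genes, and with SNX631 in the presence of R1881, 0 were called and 4 passed the looser limit, beside 4.12% and 42.8%. The counts of 0 were the same by DESeq2, and 3 and 4 members had an unadjusted p under 0.05.

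**Figure D2:**
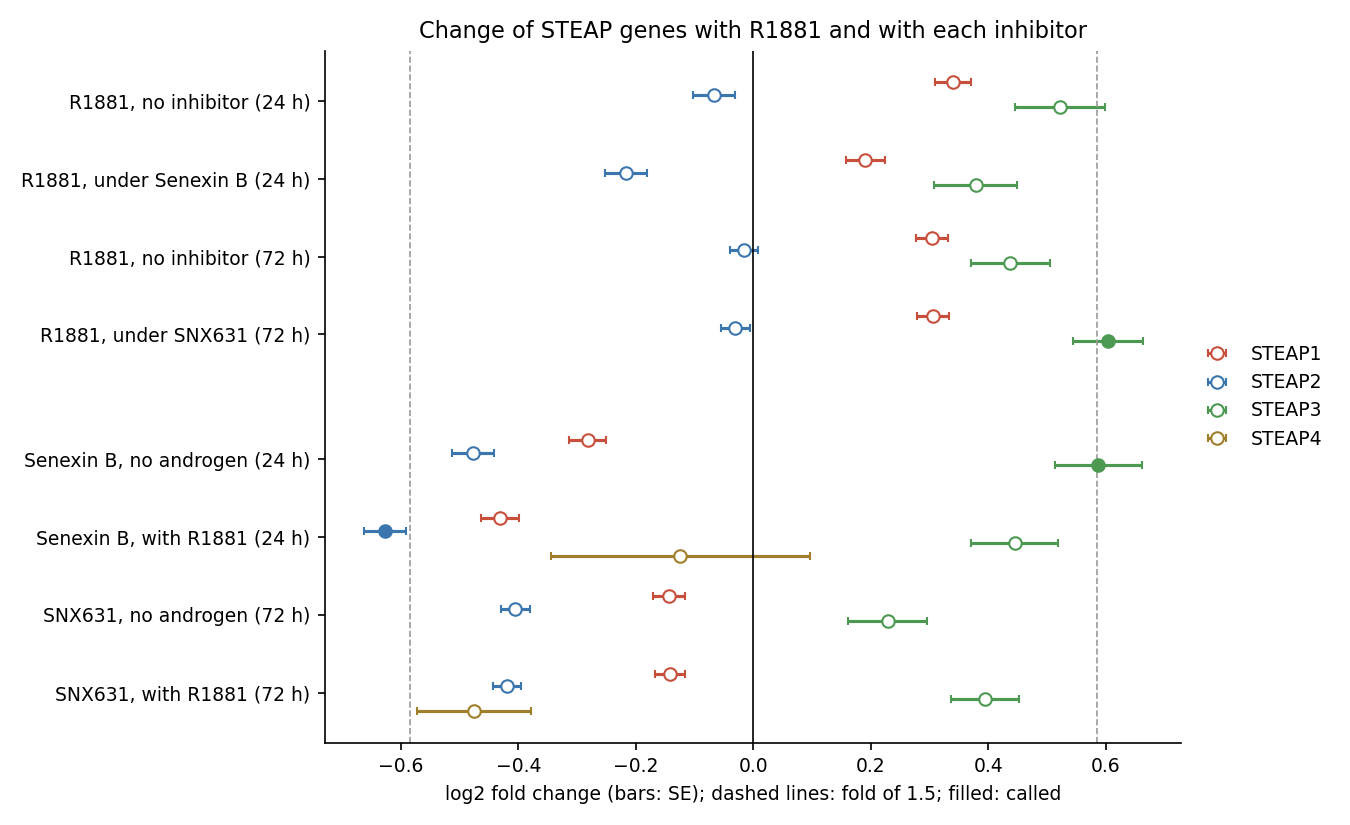
Log2 fold change (horizontal axis, bars are SE) of each STEAP gene in 8 comparisons, the upper 4 for R1881 and the lower 4 for the inhibitors. Filled points were called, open points were not, and dashed lines mark a fold of 1.5. STEAP4 is drawn only where both groups lay above the floor. STEAP1 lies right of 0 with R1881 and left of 0 with either inhibitor, STEAP2 lies left of 0 with either inhibitor, and STEAP3 lies right of 0 in all 8 comparisons.

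STEAP2 was lower with both inhibitors and was called in 1 of the 4 comparisons. Senexin B alone gave 928, 849 and 855 CPM, all below the vehicle libraries, and Senexin B with R1881 gave 754, 783 and 731 CPM, all below the libraries with R1881 alone. SNX631 alone gave 765, 741, 754 and 707 CPM and SNX631 with R1881 gave 731, 749, 747 and 706 CPM, again all below their controls. STEAP2 fell with Senexin B in the presence of R1881, to 0.647 of the level (log2 -0.63 ± 0.04 SE, FDR = 1.01e-14). It stood at 0.718 with Senexin B alone (log2 -0.48 ± 0.04 SE, FDR = 3.48e-12), at 0.755 with SNX631 alone (log2 -0.41 ± 0.02 SE, FDR = 1.27e-16) and at 0.748 with SNX631 and R1881 (log2 -0.42 ± 0.02 SE, FDR = 4.54e-17), which lie under the fold limit.

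For STEAP1 the inhibitor values were smaller. Senexin B alone gave 211, 206 and 213 CPM and Senexin B with R1881 gave 235, 244 and 240 CPM. SNX631 alone gave 218, 222, 210 and 217 CPM and SNX631 with R1881 gave 273, 266, 266 and 279 CPM. None of these groups overlapped its control. STEAP1 stood at 0.823 of its control with Senexin B alone (log2 -0.28 ± 0.03 SE) and at 0.742 with Senexin B and R1881 (log2 -0.43 ± 0.03 SE, FDR = 3.71e-12). With SNX631 it stood at 0.905 alone (log2 -0.14 ± 0.03 SE) and at 0.906 with R1881 (log2 -0.14 ± 0.03 SE, FDR = 2.6e-05).

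STEAP3 went the other way. Senexin B alone gave 21.5, 21.1 and 22.3 CPM, a fold of 1.5 (log2 0.59 ± 0.07 SE, FDR = 1.92e-07) so that it rose at the edge of the fold limit. That call was lost with library totals as scaling, with no filter on low counts, with the replicate block (log2 0.585, at the limit), and without replicate 3 of the Senexin B group (log2 0.57). Senexin B with R1881 gave 27.7, 30.9 and 26.2 CPM, 1.36-fold above R1881 alone (log2 0.45 ± 0.07 SE, FDR = 1.9e-05). SNX631 alone gave 18.7, 16.4, 18.3 and 18.2 CPM, which touched the range of the vehicle libraries (fold 1.17, log2 0.23 ± 0.07 SE, FDR = 0.0067). SNX631 with R1881 gave 27.2, 27.4, 27.0 and 28.01 CPM, all above R1881 alone (fold 1.31, log2 0.39 ± 0.06 SE, FDR = 6.57e-07).

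STEAP4 could be followed under inhibitor only where R1881 was present. Senexin B with R1881 gave 52, 31 and 36 counts, which is 4.47, 3.00 and 2.85 CPM and overlapped R1881 alone (log2 -0.12 ± 0.22 SE, FDR = 0.709, 95% interval -0.566 to 0.319). SNX631 with R1881 gave 92, 140, 122 and 114 counts, which is 7.30, 9.97, 8.38 and 8.32 CPM. These 4 libraries all lay below the 4 with R1881 alone, at 0.719 of the level (log2 -0.48 ± 0.10 SE, FDR = 0.000131), under the fold limit. The interval for Senexin B holds a difference of this size as well as 0.

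The response to R1881 was also measured in the presence of each inhibitor. With Senexin B, 1 member was called, again STEAP4, and 4 passed the looser limit, 3 higher and 1 lower, where 18.9% of genes were called and 57.4% passed the looser limit. STEAP1 was 1.14-fold higher and STEAP3 1.3-fold higher, whereas STEAP2 stood at 0.86 of the Senexin B group (log2 -0.22 ± 0.04 SE, FDR = 5.92e-06). With SNX631, 2 members were called, STEAP3 and STEAP4, and 3 passed the looser limit, all higher, where 22% of genes were called and 65.7% passed the looser limit. STEAP3 rose 1.52-fold there (log2 0.60 ± 0.06 SE, FDR = 1.72e-11), a call lost with library totals as scaling (log2 0.50) and without replicate 2 of the SNX631 group (log2 0.56). STEAP1 was 1.24-fold higher and STEAP2 stood at 0.979 (FDR = 0.269). The calls of STEAP4 under either inhibitor were fixed by the filter, so nothing is read from the counts of members called.

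The androgen effect with inhibitor minus that without it gave no call among the 3 members that could be tested, in either experiment and by either tool. At 24 h, 0.577% of genes were called and 4.51% passed the looser limit, and at 72 h 1.19% and 12.7%. STEAP1 and STEAP2 had an unadjusted p under 0.05 at 24 h, each with a log2 difference of -0.15 (SE 0.05 for each, FDR = 0.0527 and 0.0961). At 72 h none had, with log2 differences of 0.002 for STEAP1 (95% interval -0.0747 to 0.0783), -0.01 for STEAP2 (95% interval -0.0828 to 0.0539) and 0.17 for STEAP3 (95% interval -0.0161 to 0.347).

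With both agents together against vehicle, a comparison added after the values were seen, STEAP3 reached its highest level. It rose 1.95-fold at 24 h (log2 0.97 ± 0.07 SE, FDR = 1.91e-13) and 1.78-fold at 72 h (log2 0.83 ± 0.06 SE, FDR = 4.8e-15), and without each library in turn the log2 value lay between 0.903 and 1.02 and between 0.799 and 0.87. STEAP2 fell to 0.618 at 24 h (FDR = 2.08e-17) and stood at 0.74 at 72 h (FDR = 8.22e-19). STEAP1 stood at 0.939 at 24 h and was 1.12-fold higher at 72 h (FDR = 1.16e-06), and the difference between the experiments was not tested. With STEAP4, whose call the filter fixed, 3 members were called at 24 h and 2 at 72 h. Over all genes 25.5% and 26.7% were called, and nothing is read from the counts of members. All 4 members passed the looser limit in each, as did 66.8% and 71.8% of genes.

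The ratio of STEAP1 to STEAP2 counts within a library does not depend on the scaling between libraries, and it was added after the values were seen. Per 100 STEAP2 counts the 24 h vehicle libraries held 20.4, 21.2 and 21.0 STEAP1 counts, Senexin B 22.7, 24.2 and 24.9, R1881 26.4, 29.1 and 27.7, and both agents 31.1, 31.2 and 32.9. At 72 h the vehicle libraries held 24.4, 25.2, 23.8 and 24.2, SNX631 28.5, 29.9, 27.8 and 30.8, R1881 31.6, 28.5, 31.0 and 30.9, and both agents 37.4, 35.5, 35.5 and 39.4. The ratio was thus lowest with vehicle and highest with both agents in each experiment. No group overlapped the other in any of the 8 comparisons of R1881 or an inhibitor with its control, which share groups. How many other gene pairs separate in this way was not counted, so nothing is read from the lack of overlap. The ratio restates the STEAP1 and STEAP2 values given above and is no separate support for them.

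**Figure D3:**
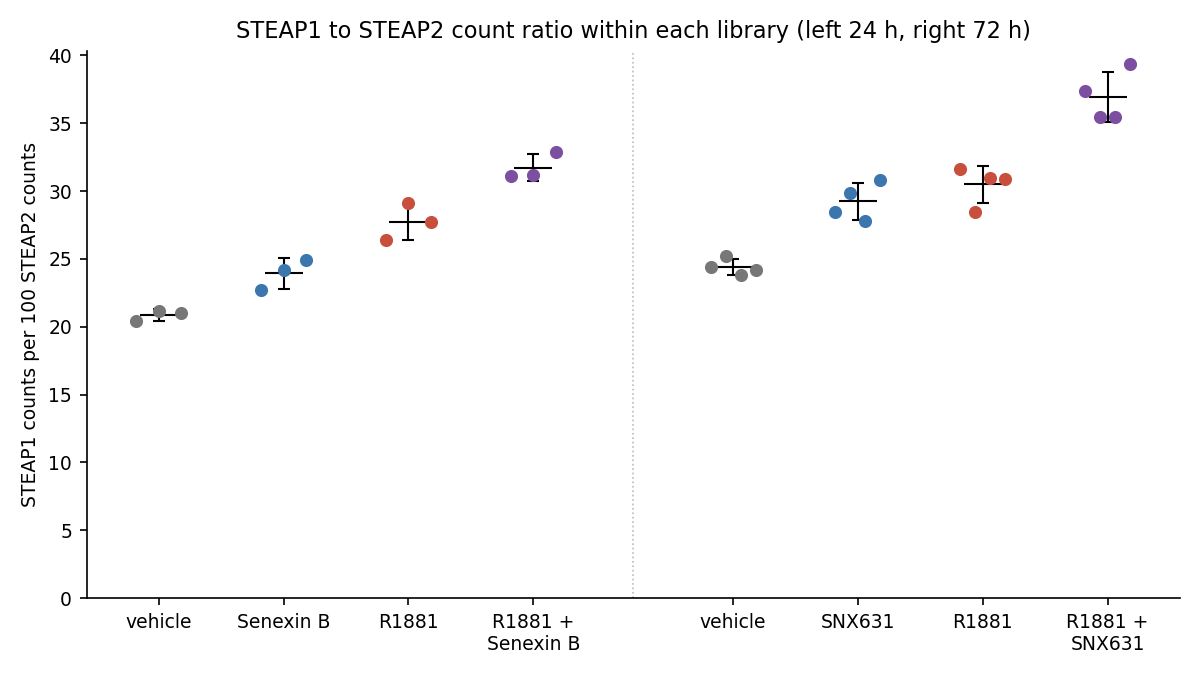
STEAP1 counts per 100 STEAP2 counts (vertical axis from 0) in each library, with the 24 h experiment to the left and the 72 h experiment to the right of the dotted line. Points are libraries and black bars give the mean and SD. The vehicle libraries lie between 20.4 and 25.2 and the libraries with both agents between 31.1 and 39.4.

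R1881 moved the mean ratio by 6.85 at 24 h and by 6.12 at 72 h, and by 7.79 under Senexin B and 7.7 under SNX631. Senexin B moved it by 3.07 without and 4.01 with R1881, and SNX631 by 4.87 and 6.45. Two-sided exact permutation tests gave p = 0.0286 in each of the 4 comparisons at 72 h (0.0571 adjusted over the 8) and p = 0.1 in each of the 4 at 24 h (0.1 adjusted), which are the smallest values that 4 against 4 and 3 against 3 libraries allow. No adjusted value passed 0.05, and none could have with these numbers of libraries, so nothing is read from this.

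Levels between genes were compared per kb of transcript. With the longest transcript of each gene (1313 bases for STEAP1, 7033 for STEAP2, 4262 for STEAP3 and 9988 for STEAP4), the 24 h vehicle libraries held 194 ± 1.79 CPM per kb of STEAP1, 173 ± 4.84 of STEAP2 and 3.37 ± 0.00977 of STEAP3 (SD, n = 3). With the median transcript length the order of the first 2 turned, with 563 ± 15.7 CPM per kb of STEAP2 and 241 ± 2.23 of STEAP1. The order of STEAP1 and STEAP2 thus cannot be told from these counts. STEAP3 made up at most 2.23% of the summed level per kb of the 4 genes in a group mean. STEAP4 came last, at 1.18 ± 0.0373 CPM per kb in its highest group (R1881 at 72 h, longest transcript), against 4.85 ± 0.193 of STEAP3 there.

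The genes around the chromosome 7 members were listed to place the members among their neighbours. Of 14 listed genes 10 were tested. With R1881, 1 of the 10 was called at 24 h and 2 at 72 h, which is 10% and 20%, beside 19% and 19.8% of all genes. Nothing particular to the neighbours is read from this. DBF4, the activating subunit of a kinase of DNA replication, which lies beyond the 3′ end of STEAP4, was the neighbour called with R1881 in both experiments. It rose from 5.80 to 18.1 CPM at 24 h (log2 1.6 ± 0.09 SE, FDR = 6.52e-16) and from 10.2 to 24.9 CPM at 72 h (log2 1.29 ± 0.08 SE, FDR = 1.75e-17). SRI, the tested neighbour nearest to STEAP4, was 1.09-fold and 1.14-fold higher and was not called, and the listed genes between STEAP4 and STEAP1 were not tested because their counts were too low.

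**Figure D4:**
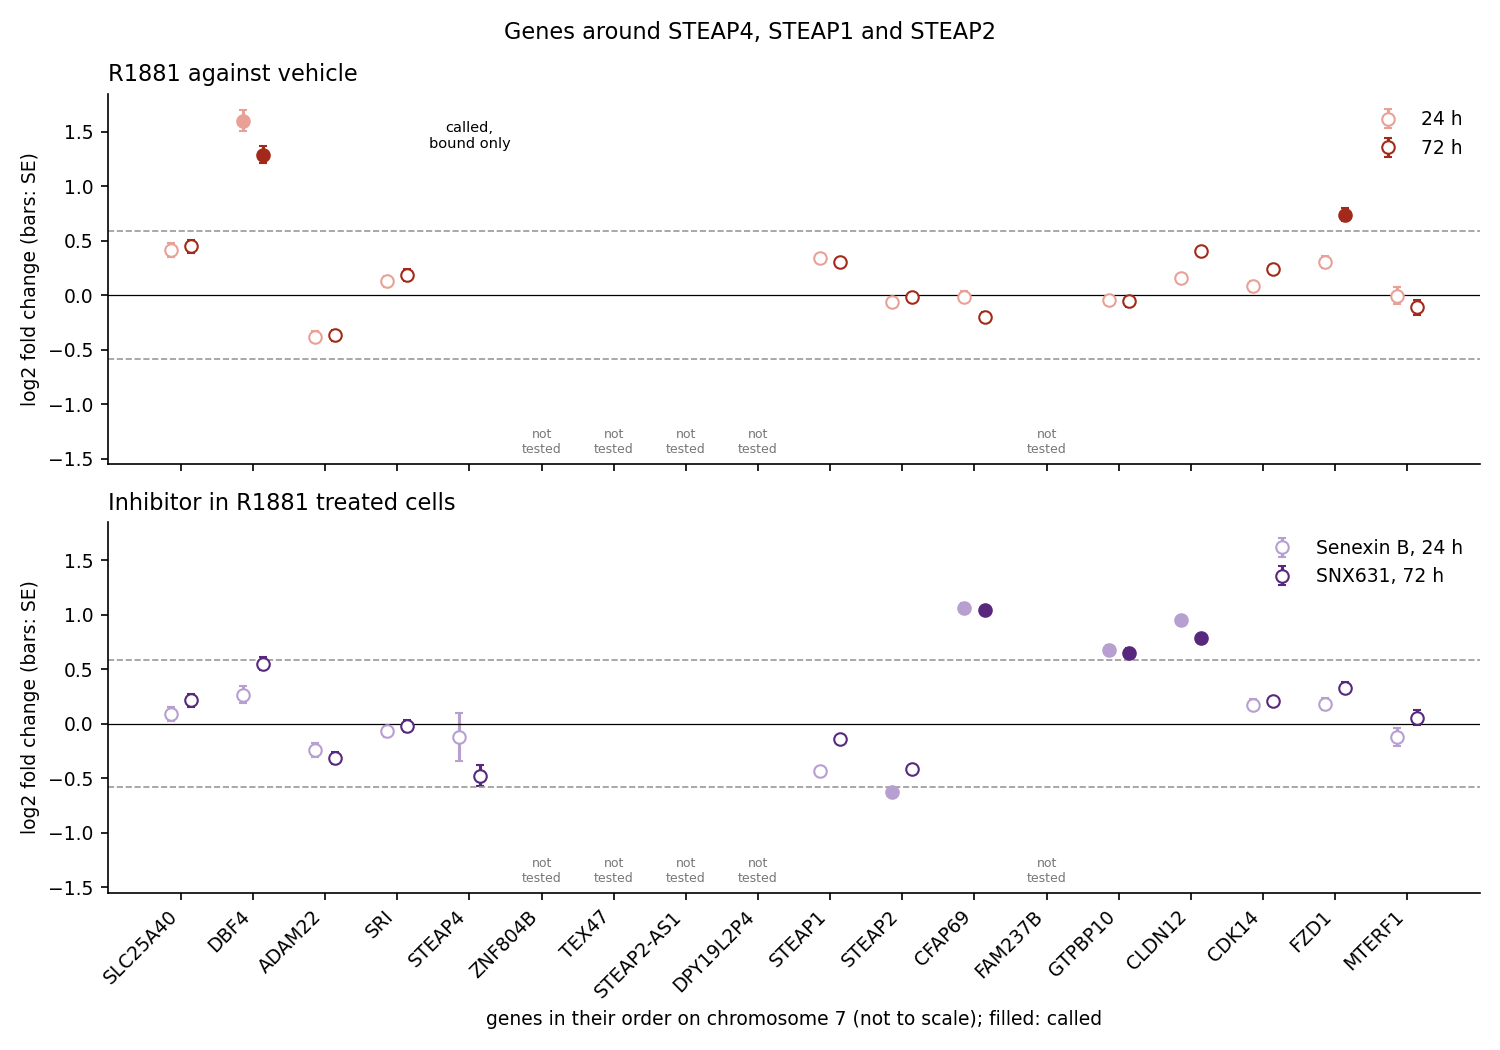
Log2 fold change (vertical axes, bars are SE) of the genes on either side of STEAP4, STEAP1 and STEAP2, in their order along chromosome 7, for R1881 against vehicle (upper panel) and for an inhibitor in R1881 treated cells (lower panel). Filled points were called, dashed lines mark a fold of 1.5, and STEAP4 has no point in the upper panel because vehicle was at the floor. In the lower panel STEAP1 and STEAP2 lie below 0 and CFAP69, GTPBP10 and CLDN12, the next tested genes, lie above the upper dashed line in both experiments.

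With the inhibitors, CFAP69, GTPBP10 and CLDN12, the 3 tested genes next after STEAP2, stood on the other side of 0 from STEAP2. They were named after their values were seen. CDK14 and FZD1, which follow CLDN12, were also higher in the presence of R1881 but were not called. CDK14 went from 73.4 to 83.0 CPM with Senexin B and from 104.9 to 122.1 CPM with SNX631. FZD1 went from 37.9 to 42.9 and from 38.9 to 49.2 CPM. MTERF1, the farthest of the listed genes on that side, was at -0.12 with Senexin B in the presence of R1881 (FDR = 0.299). With SNX631 there it went from 17.8 to 18.6 CPM. CFAP69, the next gene after STEAP2, rose from 65.2 to 136 CPM with Senexin B in the presence of R1881 (log2 1.06 ± 0.05 SE, FDR = 7.93e-18) and from 58.6 to 122 CPM with SNX631 (log2 1.04 ± 0.04 SE, FDR = 1.01e-22). GTPBP10 rose by 0.68 and 0.65 on the log2 scale and CLDN12, a claudin, by 0.95 and 0.79. The annotated spans of GTPBP10 and CLDN12 overlap on the same strand, as do those of CLDN12 and CDK14, so the counts of these genes are uncertain. Without R1881, CFAP69 and GTPBP10 were also called higher with either inhibitor. With R1881 present, 3 of the 10 tested neighbours were called with each inhibitor, all higher, beside the 3.12% and 4.12% of all genes called.

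Genes that handle iron and copper with the STEAP proteins were taken from a list of 48, of which 39 were tested. Of these, R1881 raised 2 and lowered 5 at 24 h, and raised 3 and lowered 4 at 72 h, which is 17.9% of those tested in each experiment, near the 19% and 19.8% of all genes. The median log2 fold change of the list was 0.10 at both times, beside -0.02 and -0.01 over all genes. At the looser limit, 30 of the 39 passed at 24 h and 34 of the 39 at 72 h, larger shares than the 58.4% and 62.1% of all genes, and nothing particular to the list is read from this.

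**Figure D5:**
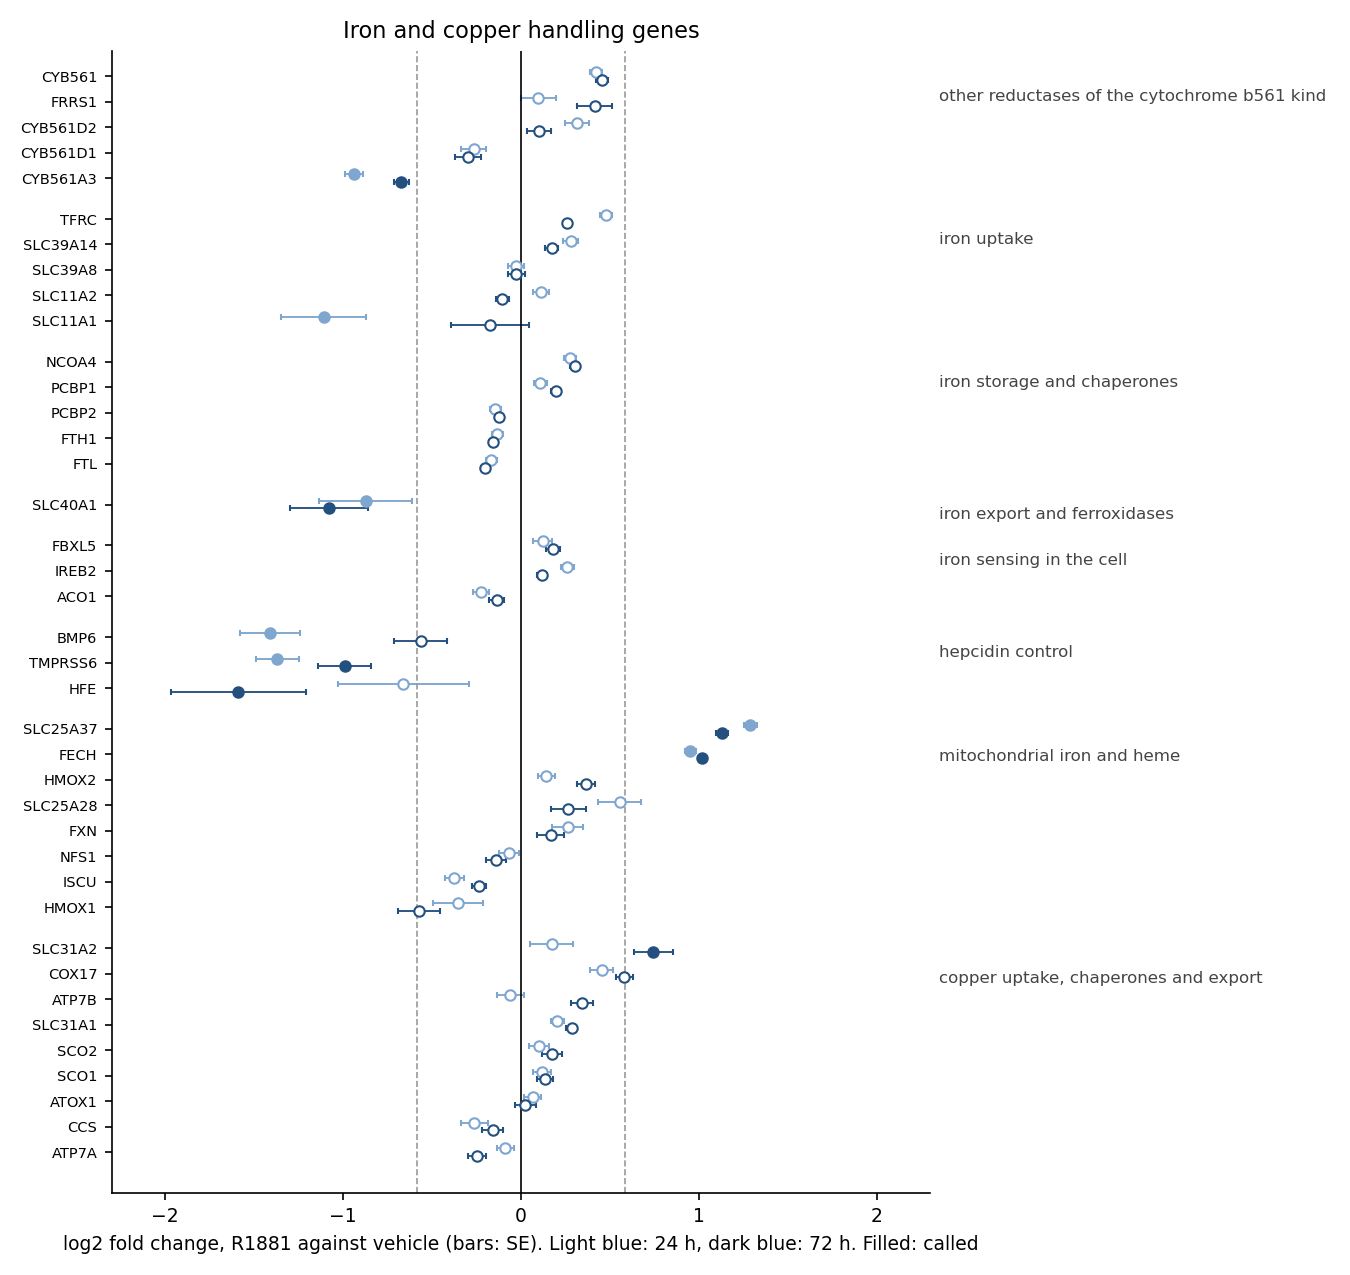
Log2 fold change with R1881 against vehicle (horizontal axis, bars are SE) of the 39 tested genes of iron and copper handling, grouped by role, at 24 h in light and at 72 h in dark blue. Filled points were called and dashed lines mark a fold of 1.5. Mitochondrial SLC25A37 and FECH lie to the right, CYB561A3, SLC40A1 and TMPRSS6 to the left, and the storage genes FTH1 and FTL lie near 0.

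In mitochondria, SLC25A37, the iron importer mitoferrin, rose from 74.2 to 181 CPM at 24 h (log2 1.29 ± 0.04 SE, FDR = 9.36e-24) and from 76.4 to 168 CPM at 72 h (log2 1.13 ± 0.03 SE). FECH, which inserts iron into heme, rose from 191 to 370 CPM and from 181 to 369 CPM (log2 0.95 ± 0.03 and 1.02 ± 0.03 SE). These were the members of the heme and mitochondrial group called, 2 of 8 tested at each time.

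Among the other reductases, CYB561A3, a cytochrome b561 of lysosomes, fell from 116 to 60.9 CPM at 24 h (log2 -0.94 ± 0.05 SE, FDR = 1.92e-17) and from 94.4 to 59.5 CPM at 72 h (log2 -0.67 ± 0.04 SE, FDR = 9.15e-17). It was the 1 of 5 tested that was called. SLC40A1, the iron exporter ferroportin, fell from 2.302 to 1.29 CPM and from 2.74 to 1.32 CPM (log2 -0.87 ± 0.26 and -1.08 ± 0.22 SE). Its R1881 libraries held only 9 to 18 counts at 24 h and 11 to 18 at 72 h. With R1881 in the presence of Senexin B it also fell (log2 -0.963), and in the presence of SNX631 it was not called (log2 -0.463). TMPRSS6, a protease that restrains hepcidin, fell from 13.7 to 5.31 CPM and from 7.06 to 3.59 CPM (log2 -1.37 ± 0.12 and -0.99 ± 0.15 SE). The 5 tested genes of iron storage and chaperones and the 3 of iron sensing all passed the looser limit at both times, as did 58.4% and 62.1% of all genes, and all lay under the fold limit. The ferritin chains FTH1 and FTL stood at 0.911 and 0.891 of vehicle at 24 h and at 0.897 and 0.87 at 72 h.

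With the inhibitors alone, 10.3% (Senexin B) and 7.69% (SNX631) of the 39 genes were called, beside 3.79% and 4.77% of all genes. In the presence of R1881 the shares were 7.69% and 10.3%, beside 3.12% and 4.12%. Of the 39 genes, 3 had calls in the same direction with Senexin B at 24 h as with SNX631 at 72 h. These 3 are named below because of those calls. How many of all genes had such calls was not counted, so nothing particular to the list is read from the 3. FRRS1, a ferric reductase, fell with Senexin B alone from 12.5 to 7.91 CPM (log2 -0.72 ± 0.11 SE, FDR = 4.7e-06) and with SNX631 alone from 9.86 to 6.04 CPM (log2 -0.71 ± 0.11 SE, FDR = 3.66e-06). BMP6, a signal that raises hepcidin, rose with Senexin B alone from 9.90 to 43.0 CPM (log2 2.1 ± 0.10 SE, FDR = 2.24e-17) and with SNX631 alone from 5.40 to 27.5 CPM (log2 2.33 ± 0.09 SE, FDR = 7.07e-22), and also in the presence of R1881 (log2 1.68 ± 0.18 and 0.95 ± 0.13 SE). TMPRSS6 fell with either inhibitor in the presence of R1881 (log2 -0.86 ± 0.18 and -0.84 ± 0.20 SE). Hepcidin itself, HAMP, was not tested because its counts were too low.

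The genes whose 8 group means ran closest to those of each member were sought among 14179 genes by the root mean square difference of centred log2 CPM. STEAP1 was followed by RCOR1, a subunit of a corepressor complex, TRAFD1 and KATNAL1, each at 0.059, where STEAP1 itself ranged over 0.622. STEAP2 was followed by TFAP2C, a transcription factor, PPL, a plakin, and KDM8 (0.062, 0.069 and 0.078 for a range of 0.734). STEAP3 was followed by PYCR1, an enzyme of proline synthesis, SCLY and MSTO1 (0.055, 0.076 and 0.082 for a range of 0.967). STEAP4 was followed at a greater distance by ZNF812P, TBX15 and ALPK2 (0.46, 0.47 and 0.47 for a range of 6.28). These genes also reached 0 CPM. Without R1881 the log2 values of STEAP4 were set by the prior count, so its distances and range depend on it and nothing is read from them. For every member the genes named are the nearest by choice, and how many others lay almost as close was not counted.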

How the data were processed

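The authors deposited expected counts per gene for all 28 libraries in 1 table, of whose values 6.36% carry a fraction. The submitters' processing notes name cutadapt 2.8, STAR 2.7.2b, featureCounts of Subread 2.0.3 and the builds GRCh38.p13 and GRCm39. The kit was directional, and the use of strand and the annotation release are not given in the sources used here. The 2 added entries that are not human genes held 0 counts and were not used. Fractions were rounded off before the tests, and a floor of 3 counts was used for counting error.

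Each experiment was fitted alone (4 groups, no covariate) in R 4.3.3 with edgeR 4.0.16 (TMM, filterByExpr, count limit 10, total limit 15), over all genes, with Benjamini-Hochberg adjustment. Differences between experiments came from a fit of all 28 libraries. On simulated data of 15682 genes, the edgeR steps recovered 100% of 200 genes changed 2-fold for R1881 against vehicle at 24 h. They also called 1 unchanged gene. The changed genes were a far smaller share than the 19% called in the data, and so broad a response was not tried. The counts were drawn from the fitted spread and genes with low counts were not among those changed. Smaller changes, such as those of STEAP1, STEAP2 and STEAP3, and low levels, such as that of STEAP4 at 24 h, were thus not tried. The common biological coefficient of variation was 2.72% at 24 h and 2.38% at 72 h.

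The members, the gene lists and the rule for named genes were chosen with earlier results of these data known. The rule takes the 4 members, their antisense genes and paralog, listed iron and copper genes called the same way in both experiments for R1881 or for the inhibitors, neighbours called for R1881 in both, and the 3 genes nearest to each member's pattern. Markers of stroma, endothelium and immune cells were also listed. COL1A1 reached 30.9 CPM, VWF 4.5 CPM, ACTA2 1.52 CPM and the immune marker CD68 1.4 CPM. COL1A2, DCN, PECAM1, CDH5, PTPRC and CD3E stayed at 0.284 CPM or less. Exact permutation tests used SciPy 1.17.1, and DESeq2 1.42.0 was an alternative. The ratio, the R1881 groups between experiments, and both agents against vehicle were added after the values were seen. Other settings tried were DESeq2 size factors, library totals, no filter, a replicate block, a looser limit, median transcripts and leaving out libraries.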

Additional observations from a re-analysis of the deposited data

Results flagged for a closer look

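Of 19 sets of 4 libraries tested (a member in a group, or a ratio), 2 held a library far from the others, where chance gives about 1 in 20. STEAP2 in replicate 3 of the 72 h vehicle group stood at 999.1 CPM, and the other 3 libraries lay between 970 and 974.7 CPM. STEAP4 in replicate 4 of the same group stood at 0.0768 CPM, which is 1 count, and the others held 0, so that any count there would have stood apart by construction and it says nothing about chance.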

How the results depend on the processing

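The counts of members called held within 1.5 times under DESeq2 size factors, the DESeq2 test and the fit of all libraries. With an FDR under 0.05 and no fold limit they became 3 and 3 for R1881 at 24 and 72 h, 4 under Senexin B, 3 and 3 for Senexin B without and with R1881, 3 and 4 for SNX631, and 2 for vehicle between experiments. The listed iron and copper genes became 30 and 34 of 39, beside 58.4% and 62.1% of all genes. The call of STEAP3 with Senexin B alone was lost (0 members called) with library totals, with no filter and with the replicate block, and leaving out single libraries gave 0 to 1. Under SNX631, R1881 called 1 member with library totals and 1 to 2 with libraries left out. STEAP3 lay at 0.549, 0.575 and 0.585 in the first of these, against a limit of 0.585, and at 0.496 with library totals in the second. The replicate numbers did not pair the samples (correlations of deviations from -0.061 to 0.143 at 24 h), and the block changed no other count.

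Library totals shifted the median gene by -0.12 (log2) with R1881 at 72 h. The sign of 5 differences turned, none of which was called, and the cause was not tested. STEAP2 with R1881 at 72 h was 0.00238 with no filter and -0.0391 to 0.00193 with libraries left out. The interaction at 72 h was -0.00394 for STEAP1 with library totals, and -0.0123 to 0.0215 for STEAP1 and -0.0323 to 0.00917 for STEAP2 with libraries left out. STEAP4 under Senexin B with R1881 ran from -0.367 to 0.00828 with libraries left out. STEAP3 between the R1881 groups of the experiments was -9.58e-05 with no filter and -0.0453 to 0.0274 with libraries left out. With median transcript lengths the STEAP1 to STEAP2 level per kb was 0.428, 0.491, 0.569 and 0.65 at 24 h and 0.502, 0.602, 0.626 and 0.758 at 72 h, below 1 in place of above it.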
